A study of Mus musculus with 9 samples.

Results

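Fads3, Apod, Armc2 and Duox1 are 4 mouse genes that each hold at least 1 transcribed region in their interior whose signal was higher at both 15 and 30 min after a Firre transgene was switched on. The genes were chosen by measured values of these same libraries, namely the change of 1 internal region each at 15 and 30 min, so the values and calls of the internal regions are given as a description, not as evidence of a change. Their regions were collected by position: every 600 bp bidirectional region whose centre lay inside 1 of the 4 annotated genes, or within 10 kb of either end, was a member. This gave 64 of 174289 regions, with 4 for Fads3, 11 for Apod, 40 for Armc2 and 9 for Duox1. Of these, 53 lay inside a gene, 3 lay within 1 kb of an annotated gene end and 8 lay farther out in a flank.

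The cells were mouse embryonic stem cells that lacked the Firre locus and carried a Firre transgene under doxycycline control. They were grown on gelatin with serum, LIF and inhibitors of MEK and GSK3, and were sampled with no doxycycline (0 min), 15 min after doxycycline and 30 min after doxycycline, with 1 ng/μL of the drug at 15 and 30 min and 3 libraries at each time. The knockout and the transgene were shared by all 9 libraries, and no library received doxycycline without the transgene, so the drug and the transgene cannot be told apart. PRO-seq, a nuclear run-on assay, was read out as counts over bidirectional regions, which are places where polymerases start out in both directions. Nothing in the labels tells if libraries of the same time came from different cultures, and a p-value here reflects library-to-library spread that may be technical.

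Bidirectional initiation is a property of active promoters and also of enhancers, many of which lie inside genes. A region inside a gene may therefore mark an enhancer, an internal promoter or both, and run-on signal at the gene's own start is a separate readout of whether the gene itself is initiated. Firre is a nuclear long noncoding RNA transcribed from the X chromosome. Of the 4 genes, Fads3 encodes a fatty acid desaturase family member that acts on sphingoid bases, and Apod encodes apolipoprotein D, a secreted lipocalin that carries small lipids. Armc2 encodes an armadillo repeat protein needed for the sperm flagellum, and Duox1 encodes a dual oxidase that makes hydrogen peroxide and depends on the maturation factor Duoxa1.

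The promoter sequences show how different the annotated starts of these genes are, and they locate the starts relative to the regions that were measured. RefSeq promoter sequences (GRCm38.p6, the assembly called mm10, 250 bases before and 50 bases after a transcript start, 300 bases each) matched 3 of the 4 genes, and the long noncoding RNA 1700016J18Rik, which starts at the upper end of Armc2, was added. The windows are chr19:10041298-10041597 on the + strand for Fads3, chr16:31314759-31315058 on the - strand for Apod, chr2:122315422-122315721 on the + strand for Duox1 and chr10:42017904-42018203 on the + strand for 1700016J18Rik. Each is printed 5′ to 3′, with every CG dinucleotide in capitals.
Fads3: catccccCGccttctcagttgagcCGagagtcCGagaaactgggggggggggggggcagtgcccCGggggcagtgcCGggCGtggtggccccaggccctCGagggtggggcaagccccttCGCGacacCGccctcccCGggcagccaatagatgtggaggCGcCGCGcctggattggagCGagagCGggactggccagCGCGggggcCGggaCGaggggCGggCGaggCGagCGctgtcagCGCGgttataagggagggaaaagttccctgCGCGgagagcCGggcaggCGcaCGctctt
Apod: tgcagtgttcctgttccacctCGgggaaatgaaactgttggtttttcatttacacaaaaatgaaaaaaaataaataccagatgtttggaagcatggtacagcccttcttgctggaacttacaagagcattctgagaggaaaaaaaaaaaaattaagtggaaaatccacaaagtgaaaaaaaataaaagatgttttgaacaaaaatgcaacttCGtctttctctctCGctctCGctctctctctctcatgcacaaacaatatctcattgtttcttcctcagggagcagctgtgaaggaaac
Duox1: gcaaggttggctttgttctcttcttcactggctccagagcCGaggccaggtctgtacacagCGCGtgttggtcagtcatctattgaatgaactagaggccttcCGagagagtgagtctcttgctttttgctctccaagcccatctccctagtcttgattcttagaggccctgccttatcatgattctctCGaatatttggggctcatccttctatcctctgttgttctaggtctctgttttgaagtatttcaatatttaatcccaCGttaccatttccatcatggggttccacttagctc
1700016J18Rik: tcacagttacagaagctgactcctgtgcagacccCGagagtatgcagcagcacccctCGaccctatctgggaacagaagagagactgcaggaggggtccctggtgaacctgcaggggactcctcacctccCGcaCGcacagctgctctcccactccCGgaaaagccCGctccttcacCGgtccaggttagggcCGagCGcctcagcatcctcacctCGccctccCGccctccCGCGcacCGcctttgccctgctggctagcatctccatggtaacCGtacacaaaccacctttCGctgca
The Fads3 promoter was rich in CG dinucleotides, with 31 of them and a GC content of 73.0%, while all 32851 promoters of the table had a median of 7 CG dinucleotides and a GC content of 52.67%. The Apod promoter had 4 CG dinucleotides at 37.33% GC, and the Duox1 promoter had 6 at 46.67% GC. The 1700016J18Rik promoter had 16 at 62.67% GC. Each promoter was searched on both strands for 3 motifs, none of which contains another. CCAAT, held by 37.41% of all promoters, was present for Fads3 alone among the 4 windows. The GC box letters GGGCGG, held by 35.66% of all promoters, were present for Fads3 and 1700016J18Rik. The TATA box letters TATAAA, held by 13.62% of all promoters, were in none of the 4.

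Neither the Fads3 nor the Duox1 promoter window overlapped a measured region: the nearest region centre lay 2.92 kb from the Fads3 transcript start and 3.68 kb from the Duox1 transcript start. The Apod promoter window shared 157 bases with the region bidir_68174, and the 1700016J18Rik window shared 88 bases with bidir_17181 at the upper end of Armc2. Whether the starts followed the internal regions could therefore not be read for Fads3 and Duox1. For Apod the start region held too few reads to be tested. For Armc2 the strand is not given in the tables used here, so its upper end, shared with another transcript, is not taken as its start.

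Across the series, libraries held 3813365 to 5980366 reads in the regions, and values below are scaled read counts (CPM), each count set against the library's reads in regions after trimmed-mean scaling. A count of 3 reads corresponds to 0.50 to 0.79 CPM. The transgene itself was measured over 8 regions of Firre, which summed to 2.48, 4.92 and 2.62 CPM at 0 min, 274, 338 and 274 at 15 min and 790.5, 776 and 787 at 30 min. Gene-end regions of pluripotency markers, found for 6 of 8 listed genes with none for Pou5f1 and Esrrb, summed to 1258 to 1363 CPM at 0 min, 1302 to 1406 at 15 min and 1296 to 1372 at 30 min. The marker lists of primitive endoderm, mesoderm and neuroectoderm, trophectoderm and feeder fibroblasts had regions for 2 of 4, 3 of 4, 1 of 3 and 3 of 4 genes. None of these 4 lists exceeded 14.1 CPM in any library, and Sox17, Pdgfra, T, Cdx2, Elf5 and Col1a2 had no such region. On principal component 2 (13.9% of the variance), library 3 of 15 min stood at 85.6 while the other libraries lay between -55.1 and 16.5, and changes at 15 min without that library are given for the named regions of the 4 genes and the called regions of other genes. Spike-in reads of Drosophila nuclei were not used here, so each change is relative to the other mouse regions.

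Low counts limited what could be examined. Of 64 regions, 10 passed edgeR's filter on low counts, 7 of them inside a gene, 2 at a gene end and 1 in a flank. The other 54 had a median of 8 reads over all 9 libraries, with a range of 1 to 80. At 15 min 6 of the 10 were called higher, at an adjusted p under 0.05 in edgeR's quasi-likelihood test over 54299 regions (4.29% of all tested regions), and 2 were called lower (3.96% of all tested regions). At 30 min 5 were called higher than at 0 min (1.24% of all tested regions) and 0 were called lower (0.497% of all tested regions), with 0 lower at an unadjusted p under 0.05 and 0 lower by DESeq2. Between 30 and 15 min, 1 region was called higher (0.214% of all tested regions) and 0 were called lower (0.490% of all tested regions), again with 0 lower at an unadjusted p under 0.05 and 0 lower by DESeq2. The 5 regions called higher at both 15 and 30 min (1.02% of all tested regions) are bidir_79313, bidir_68169, bidir_17176, bidir_17177 and bidir_90810. Since the genes were chosen for such regions, these counts are not read against those shares. The median log2 change of the 10 regions was 1.96 at 15 min and 2.15 at 30 min, while that of all tested regions was 0.02 and -0.0010. Those 10 include the regions that chose the genes. They also include bidir_17177 and bidir_90811, which held at most 4 reads in any 0 min library and passed the filter through induced libraries. The choice and the filter thus raised this median, which is not read against that of all regions.

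The call threshold separated close values. Just inside it lay bidir_17181 at the upper end of Armc2, with an adjusted p of 0.0366 at 15 min in edgeR's quasi-likelihood test. Just outside it lay bidir_90812 past the finish of Duox1, with an adjusted p of 0.0682 at 30 min. At the 10 kb limit, bidir_17184, 9.08 kb past Armc2, held 2, 0 and 4 reads at 0, 15 and 30 min, and the next region out, bidir_17185 at 10.9 kb, held 0, 3 and 0.

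**Figure D1:**
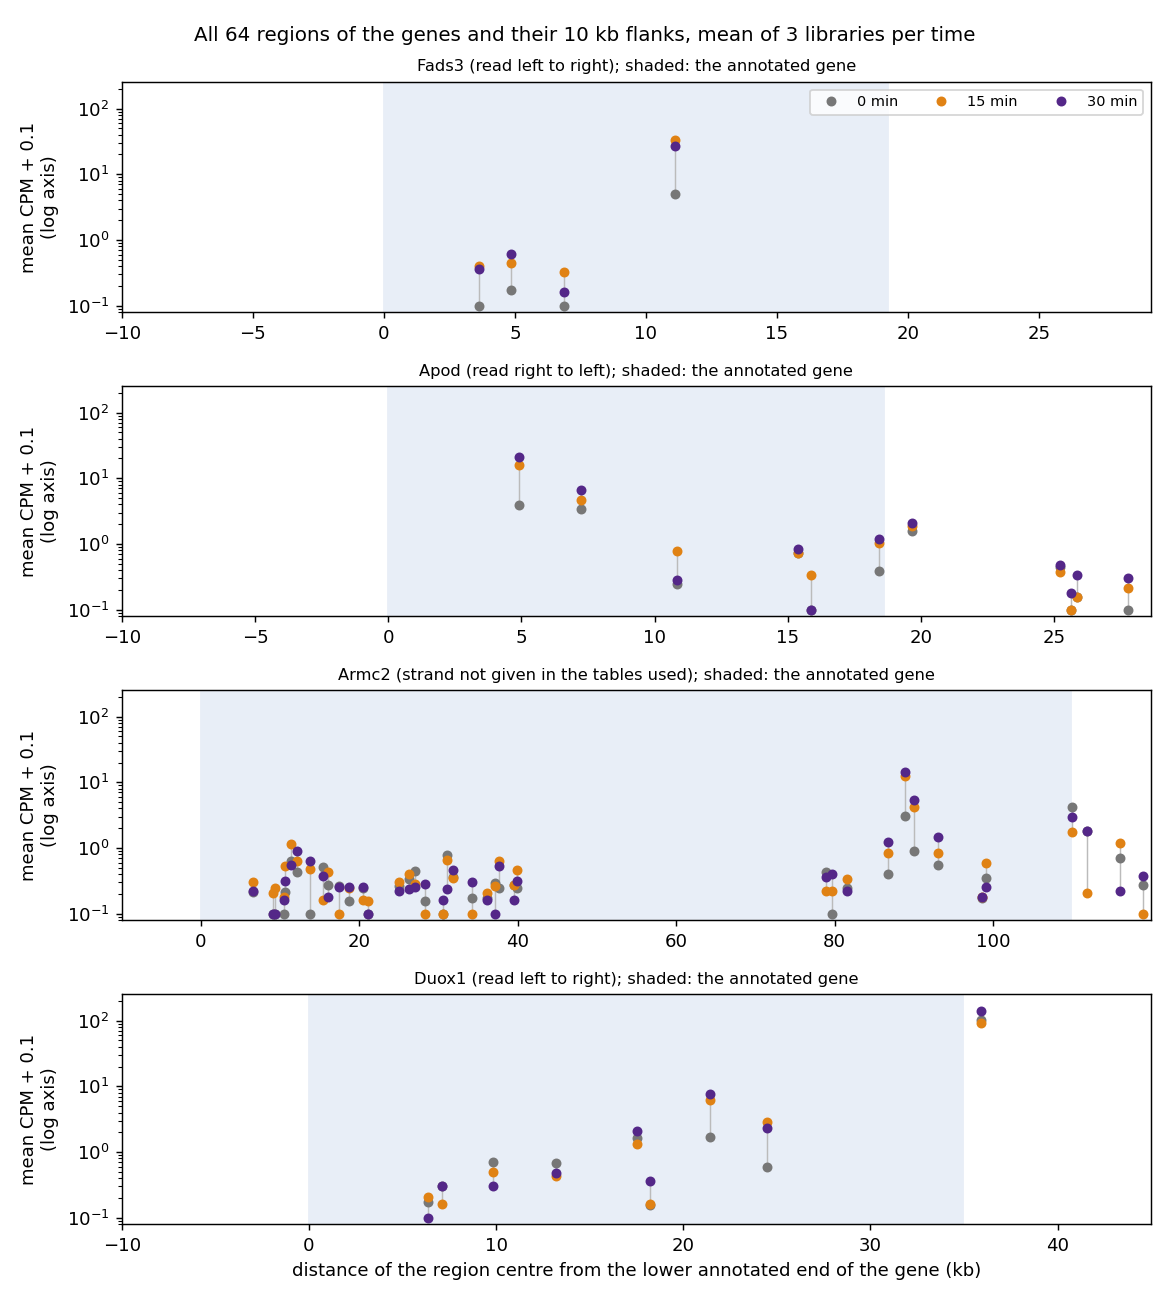
Mean CPM of all 64 regions (3 libraries per time, log axis after adding 0.1 CPM) against the distance in kb of each region's centre from the lower annotated end of its gene, which is shaded. Inside each gene 1 or 2 regions stand apart from the rest and have their 15 and 30 min points above the 0 min point, and the highest point past Duox1 is bidir_90812.

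Fads3 held the strongest internal region of the 4 genes at 15 min, and its signal stayed high at 30 min. The region bidir_79313 (chr19:10051669-10052268) lies 8.15 kb before the annotated finish of the gene (gene ID 60527, chr19:10040855-10060113, + strand). It had 3.01, 5.37 and 6.29 CPM at 0 min, 28.5, 38.9 and 31.1 at 15 min and 24.1, 25.7 and 30.1 at 30 min. All 6 induced libraries were above every 0 min library, and the 15 and 30 min ranges overlapped. The level was 6.90-fold higher at 15 min (log2 2.79 ± 0.23 SE) and 5.58-fold higher at 30 min (log2 2.48 ± 0.23 SE) than at 0 min. The 30 min level minus the 15 min level was -0.31 on the log2 scale, with a 95% interval of -0.68 to 0.07. In these bulk libraries a change in the number of cells that use a region and a change in the signal per cell cannot be told apart.

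The rest of Fads3 held few reads. Its other 3 regions, all inside the gene, summed to 1, 14 and 13 reads over the 3 libraries of 0, 15 and 30 min, too few to be tested. Scaled for depth, that sum averaged 0.07, 0.88 and 0.84 CPM. No region lay within 1 kb of either end of Fads3, so its ends have no value here. The next gene on the upper side, Fads2, encodes a desaturase of polyunsaturated fatty acids and ends 2.65 kb from Fads3. The Fads2 start region bidir_79314 averaged 88.0 ± 12.1 CPM at 0 min, 86.1 ± 13.9 at 15 min and 86.3 ± 2.12 at 30 min (SD, n = 3 each). Its log2 change was -0.04 ± 0.13 at 15 min and -0.03 ± 0.13 at 30 min, and neither was called (edgeR adjusted p = 0.897 and 0.945). On the lower side, the 1 tested region of Rab3il1, a Rab guanine nucleotide exchange factor gene, had a log2 change of -0.59 ± 0.42 at 15 min and -0.43 ± 0.41 at 30 min, and neither was called (edgeR adjusted p = 0.429 and 0.685).

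The called region of Apod lies near the finish of the gene, and the start of the gene could not be tested. The region bidir_68169 (chr16:31300787-31301386) lies 4.89 kb before the finish of Apod (gene ID 11815, chr16:31296192-31314808, - strand). It had 3.01, 3.36 and 4.98 CPM at 0 min, 17.8, 16.4 and 12.9 at 15 min and 23.3, 23.1 and 17.5 at 30 min. The 6 induced libraries did not overlap those of 0 min, while the lowest 30 min library lay just below the highest 15 min library. The level was 4.26-fold higher at 15 min (log2 2.09 ± 0.25 SE) and 5.76-fold higher at 30 min (log2 2.53 ± 0.25 SE) than at 0 min. The difference of 30 against 15 min was 0.44 ± 0.20 on the log2 scale with a 95% interval of 0.03 to 0.85, and it was not called over all regions (edgeR adjusted p = 0.480).

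The other tested region inside Apod gave no call. The region bidir_68170 (chr16:31303144-31303743), 2.36 kb from bidir_68169, had 5.31, 3.13 and 1.57 CPM at 0 min, 5.33, 3.24 and 5.34 at 15 min and 7.29, 7.08 and 5.22 at 30 min. Its groups overlapped, with a log2 change of 0.40 ± 0.36 at 15 min and 0.91 ± 0.34 at 30 min (edgeR adjusted p = 0.540 and 0.188). Without library 1 or library 3 of 0 min these were 0.92 or 0.09 at 15 min and 1.44 or 0.61 at 30 min, and none was called. The Apod start is covered by bidir_68174, whose centre lies 0.19 kb from the annotated start. That region held 2, 0 and 2 reads at 0 min, 4, 5 and 5 reads at 15 min, and 12, 1 and 4 reads at 30 min, which was too few to be tested. Scaled for depth, it averaged 0.29, 0.94 and 1.11 CPM at 0, 15 and 30 min. The 3 libraries of 15 min each held more reads than any library of 0 min, but the 30 min libraries overlapped those of 0 min. The start of the nearest gene on the lower side, Ppp1r2, an inhibitor of protein phosphatase 1, averaged 64.3 ± 5.92 CPM at 0 min, 64.1 ± 6.24 at 15 min and 62.7 ± 6.44 at 30 min (SD, n = 3 each) and was not called (edgeR adjusted p = 0.974 at 15 min and 0.929 at 30 min).

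Armc2, the longest of the genes at 109.9 kb (gene ID 213402, chr10:41908463-42018382, strand not given in the tables used here), held a pair of neighbouring internal regions that were higher at both times. The stronger, bidir_17176 (chr10:41997110-41997709), lies 20.97 kb inside the upper end. It had 3.01, 2.69 and 3.15 CPM at 0 min, 12.0, 12.96 and 11.9 at 15 min and 12.2, 14.5 and 16.6 at 30 min. Libraries of a time lay close together, and no induced library overlapped those of 0 min. The level was 4.15-fold higher at 15 min (log2 2.05 ± 0.26 SE) and 4.85-fold higher at 30 min (log2 2.28 ± 0.25 SE), with a difference of 30 against 15 min of 0.23 (95% interval -0.20 to 0.65).

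The weaker one, bidir_17177 (chr10:41998239-41998838), has its centre 1.13 kb from that of bidir_17176. It had 0.71, 0.90 and 0.79 CPM at 0 min, 4.0, 6.48 and 1.70 at 15 min and 5.28, 5.22 and 5.45 at 30 min. At 0 min it held 4, 4 and 3 reads per library, and the low 15 min value is library 3, which was still above every 0 min library. The log2 change was 2.36 ± 0.49 at 15 min and 2.71 ± 0.47 at 30 min, and the difference of 30 against 15 min was 0.35 (95% interval -0.37 to 1.08). DESeq2 gave no adjusted p for this region at 30 min, so with DESeq2 4 regions in place of 5 were called higher at both times. The other 34 regions inside Armc2 were untested and summed to 84, 138 and 130 reads at 0, 15 and 30 min. Scaled for depth, their sum averaged 6.2, 9.0 and 8.6 CPM. A stretch of 39.0 kb, between 39.96 and 78.97 kb from the lower end, held no region at all. The 27 regions below this stretch summed to 62, 100 and 77 reads, a mean of 4.6, 6.4 and 5.2 CPM. The 7 untested ones above it, on the side of the called pair, summed to 22, 38 and 53 reads, a mean of 1.6, 2.5 and 3.4 CPM.

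The upper end of Armc2 did not share the direction of the internal pair at 15 min. The region bidir_17181 (chr10:42018116-42018715), 0.03 kb from that end, also covers the start of 1700016J18Rik, and the counting strand is not given in the sources used here, so their signals cannot be told apart. It had 5.14, 4.25 and 2.88 CPM at 0 min, 1.33, 1.91 and 1.70 at 15 min and 3.28, 2.05 and 3.32 at 30 min. The 15 min libraries were all below the 0 min libraries, while the 30 min libraries overlapped them. At 15 min the level fell by 1.34 ± 0.40 on the log2 scale (edgeR adjusted p = 0.0366), and at 30 min the change was -0.54 ± 0.37 (edgeR adjusted p = 0.527). The 15 min call rests on single libraries: it was lost without library 1 or library 2 of 0 min (edgeR adjusted p = 0.184 and 0.0646) and without library 1 or library 2 of 15 min (0.150 and 0.0752), and DESeq2 gave an adjusted p of 0.0644. The difference of 30 against 15 min was 0.80 ± 0.42 and was not called (edgeR adjusted p = 0.557).

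Farther out, the flank region bidir_17182 (chr10:42020048-42020647), 1.97 kb past the same end, was also lower at 15 min, on very few reads. It held 7, 13 and 4 reads at 0 min, 2, 0 and 0 reads at 15 min, and 11, 12 and 4 reads at 30 min. The 15 min libraries lay below all others, and the 0 and 30 min libraries overlapped. The scaled ratio of 2 reads at 15 min over 24 reads at 0 min was 0.0756, with an exact 95% interval of 0.00865 to 0.304 that covers counting error only. edgeR's adjusted p was 0.0154 at 15 min and 0.989 at 30 min, and the difference of 30 against 15 min was not called (adjusted p = 0.0625). The 15 min call was lost without library 2 of 0 min (edgeR adjusted p = 0.0911) or library 2 of 15 min (0.0889), and DESeq2 gave no adjusted p. Without library 2 of 30 min the region was not tested. Its 15 min libraries held too few reads for the low-count filter, so it was tested through its 0 and 30 min reads. The low 15 min value is therefore partly selected, and its call is given as a description. The fitted log2 change at 15 min was -3.51 ± 0.90 and ran over -6.07, without library 1 of 15 min, to -2.95, without library 2 of 0 min. The difference of 30 against 15 min was 3.54 ± 0.89 and ran over 3.03 to 6.10, both extremes with a 15 min library left out. With a 15 min group at 2 reads these fitted values are no bound on the change. At the lower end of Armc2, the adjacent gene Sesn1, a stress-responsive sestrin, had 5 tested regions of which 0 were called, and its start region bidir_17139 averaged 54.7 ± 5.52 CPM at 0 min, 51.3 ± 3.62 at 15 min and 55.2 ± 3.21 at 30 min (SD, n = 3 each).

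Duox1 had the lowest signal of the 4 internal regions that chose the genes. The region bidir_90810 (chr2:122334155-122334754) lies 13.5 kb before the finish of Duox1 (gene ID 99439, chr2:122313010-122347972, + strand). It had 2.48, 0.22 and 2.10 CPM at 0 min, 6.83, 5.91 and 5.34 at 15 min and 4.19, 10.4 and 8.06 at 30 min. All induced libraries were above those of 0 min, but the 30 min libraries spread widely and enclosed those of 15 min. The level was 3.67-fold higher at 15 min (log2 1.87 ± 0.44 SE) and 4.55-fold higher at 30 min (log2 2.18 ± 0.43 SE), with a difference of 30 against 15 min of 0.31 (95% interval -0.40 to 1.02). Without library 2 of 30 min the 30 min change was 1.85 and the call was lost (edgeR adjusted p = 0.0741). With each library left out in turn, the log2 change ran over 1.37 to 2.43 at 15 min and 1.69 to 2.75 at 30 min.

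The region bidir_90811 (chr2:122337170-122337769), 3.02 kb from bidir_90810, had 0.35, 0.90 and 0.26 CPM at 0 min, 1.33, 3.24 and 3.64 at 15 min and 2.37, 2.24 and 2.13 at 30 min. It held 7, 40 and 34 reads in all at 0, 15 and 30 min, and every induced library was above every 0 min library. The log2 change was 2.35 ± 0.61 at 15 min, which was called, and 2.11 ± 0.62 at 30 min, which was not. The 15 min call was lost without library 1 or library 3 of 0 min or library 2 of 15 min, and DESeq2 gave no adjusted p. Leaving out a library gave 2.09 to 2.97 at 15 min and 1.86 to 2.73 at 30 min, with both highest values without library 2 of 0 min. The difference of 30 against 15 min was -0.24 (95% interval -1.21 to 0.72). The other 6 regions inside Duox1 summed to 40, 34 and 45 reads at 0, 15 and 30 min, a mean of 3.1, 2.2 and 3.0 CPM.

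**Figure D2:**
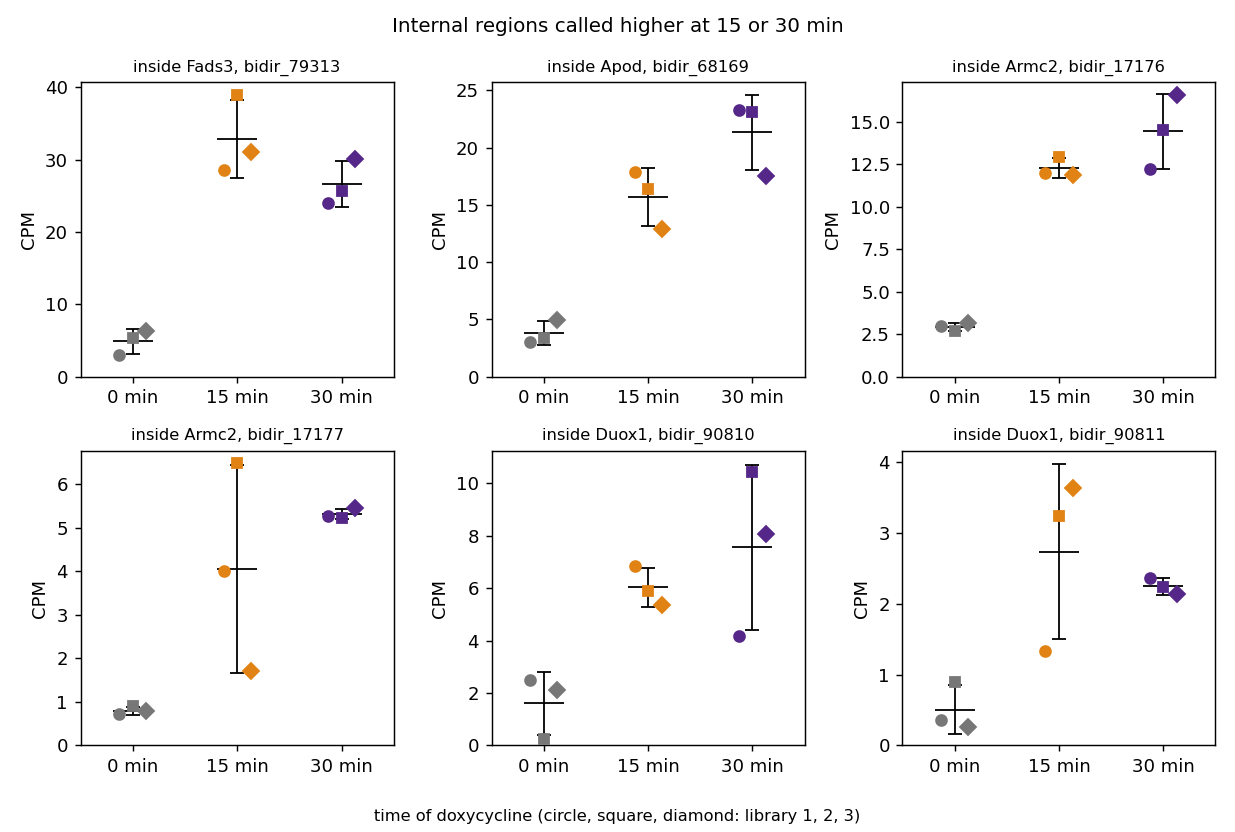
CPM (vertical axis, from 0) of the 6 internal regions called higher at 15 or 30 min, by time of doxycycline; circles, squares and diamonds are libraries 1, 2 and 3, and the bars are the mean and SD of 3 libraries. In every panel the 15 and 30 min libraries lie above the 0 min libraries, and the highest library stands at 3.64 CPM for bidir_90811 and 38.9 CPM for bidir_79313.

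The start of Duox1 had no region within 1 kb, and its finish lies beside another gene. The region bidir_90812 (chr2:122348593-122349192), 0.92 kb past the finish, is centred on the annotated end of Shf, an SH2-domain adaptor gene that is read toward Duox1, so the end regions of both genes coincide. It was the strongest of the 64 regions, with 107, 89.1 and 115 CPM at 0 min, 85.8, 81.4 and 106 at 15 min and 132, 142 and 144 at 30 min. The 15 min libraries overlapped those of 0 min, and the 30 min libraries were above all others. The log2 change was -0.19 ± 0.12 at 15 min (edgeR adjusted p = 0.383) and 0.43 ± 0.12 at 30 min (edgeR adjusted p = 0.0682), neither called. The level at 30 min was higher than at 15 min by 0.61 ± 0.12 on the log2 scale (edgeR adjusted p = 0.00917). That call was lost without library 1 or library 2 of 15 min (adjusted p = 0.0772 and 0.0677) and without library 2 or library 3 of 30 min (0.0672 and 0.0641).

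Of the genes next to the 4, Shf had a called change at its own start, and the direction was upward at both times. Its region bidir_90813 (chr2:122369531-122370130), centred within 1 kb of the annotated start, had 26.9, 21.7 and 32.5 CPM at 0 min, 66.0, 66.3 and 65.8 at 15 min and 72.0, 69.3 and 64.7 at 30 min. Every induced library was above every 0 min library, and the 15 and 30 min libraries overlapped. The level rose by 1.29 ± 0.14 on the log2 scale at 15 min (edgeR adjusted p = 1.60e-06) and by 1.35 ± 0.14 at 30 min (edgeR adjusted p = 2.48e-06), with a difference of 30 against 15 min of 0.06 ± 0.13 (adjusted p = 0.936). The other neighbours, Rab3il1, Fads2, Ppp1r2 and Sesn1, had 8 tested regions of which edgeR and DESeq2 called 0 at either time. At an unadjusted p under 0.05, 1 was higher and 1 lower at 15 min and 1 was higher at 30 min. Duoxa1 had no region, and AV205837 had 4 that were not tested.

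**Figure D3:**
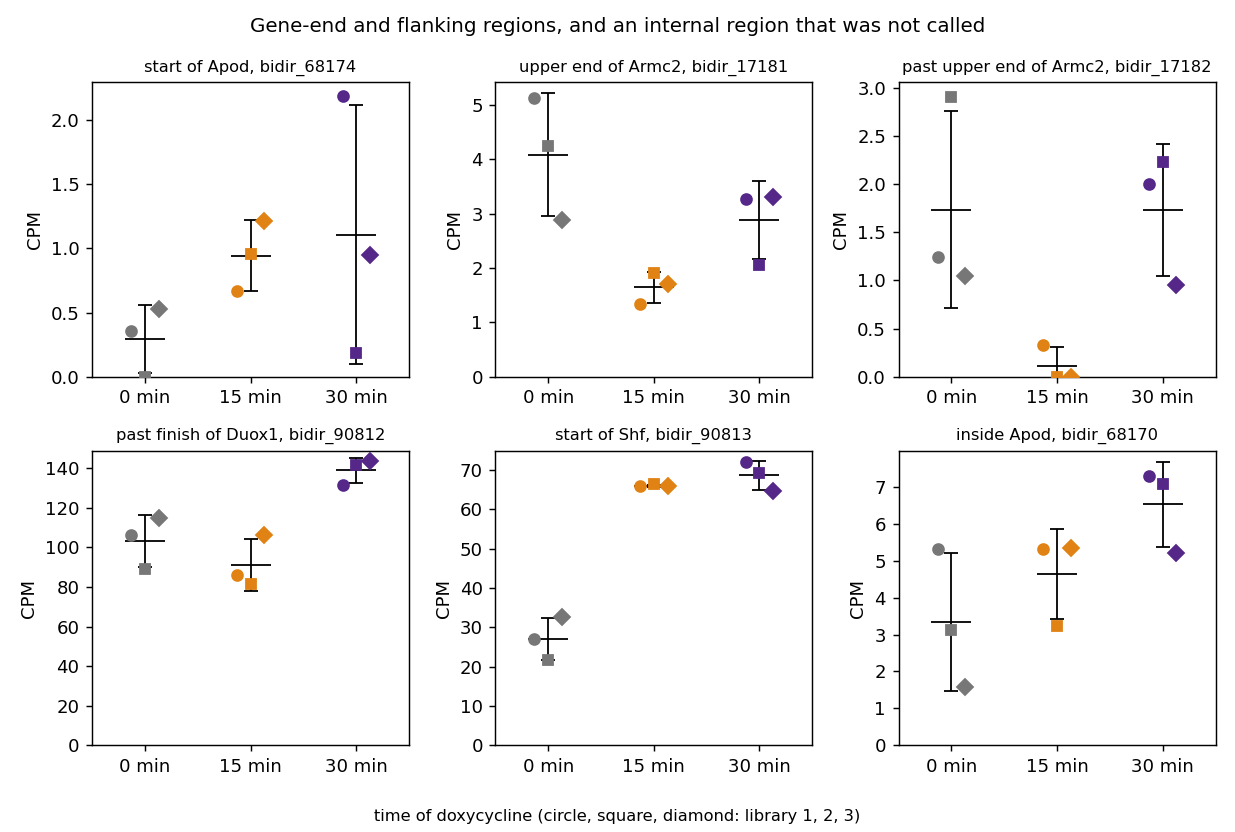
CPM (vertical axis, from 0) of end and flank regions of the genes, the Shf start and the internal Apod region that was not called, by time of doxycycline; circles, squares and diamonds are libraries 1, 2 and 3, and the bars are the mean and SD of 3 libraries. The Shf start lies at 64.7 to 72.0 CPM in the 6 induced libraries, above 21.7 to 32.5 CPM at 0 min, while the regions at and past the upper end of Armc2 are lowest at 15 min.

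Where a gene end could be tested, it was not called higher than at 0 min at either time. Of 2 tested end regions, 0 were called higher at 15 min and 0 at 30 min by edgeR or DESeq2, with 0 at 15 min and 1 at 30 min, bidir_90812, at an unadjusted p under 0.05. That region was called higher at 30 min under 4 alternatives: by 0.54 on the log2 scale (edgeR adjusted p = 0.0132) with libraries scaled on gene-end regions alone, by 0.43 with only the 2 groups compared (0.0262), by 0.43 with a replicate block (0.0371) and by 0.43 without library 3 of 15 min (0.0240). Of all 14915 tested gene-end regions, 271 (1.82%) were called higher and 1202 (8.06%) lower at 15 min, and 74 (0.496%) higher and 116 (0.778%) lower at 30 min. The same question was put to all genes with an internal region called higher at both times. There were 172 such genes, 106 of them with at least 1 tested end region and 133 end regions in all. The regions called higher at both times were taken without leaving out the Firre transgene or the 4 genes. Ends of these genes may therefore be among the 133, and the shares below are a description. Of these 133, 10 (7.52%) were called higher and 2 (1.504%) lower at 15 min, and 7 (5.26%) were called higher and 0 lower at 30 min. The median log2 change of the 133 was -0.05 at 15 min and -0.04 at 30 min, beside -0.16 and -0.12 for all gene-end regions.

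Among the 552 regions called higher at both times, those of the 4 genes were placed toward the top by size of change. The genes were chosen by changes at these same times, so the ranks are a description. By log2 change at 15 min, bidir_79313 of Fads3 ranked 22, bidir_17177 of Armc2 ranked 31, bidir_68169 of Apod ranked 43, bidir_17176 of Armc2 ranked 47 and bidir_90810 of Duox1 ranked 68. At 30 min bidir_17177 ranked 18, bidir_68169 ranked 20, bidir_79313 ranked 22, bidir_17176 ranked 31 and bidir_90810 ranked 36. The median of the 552 was 0.95 at 15 min and 0.87 at 30 min on the log2 scale. No region was left out of the 552, so regions of the Firre transgene that met the rule are among them. Of the 552, 187 (33.9%) lay inside a gene, 58 (10.5%) at a gene end and 307 (55.6%) outside genes, beside 36.9%, 27.5% and 35.6% of all tested regions.

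**Figure D4:**
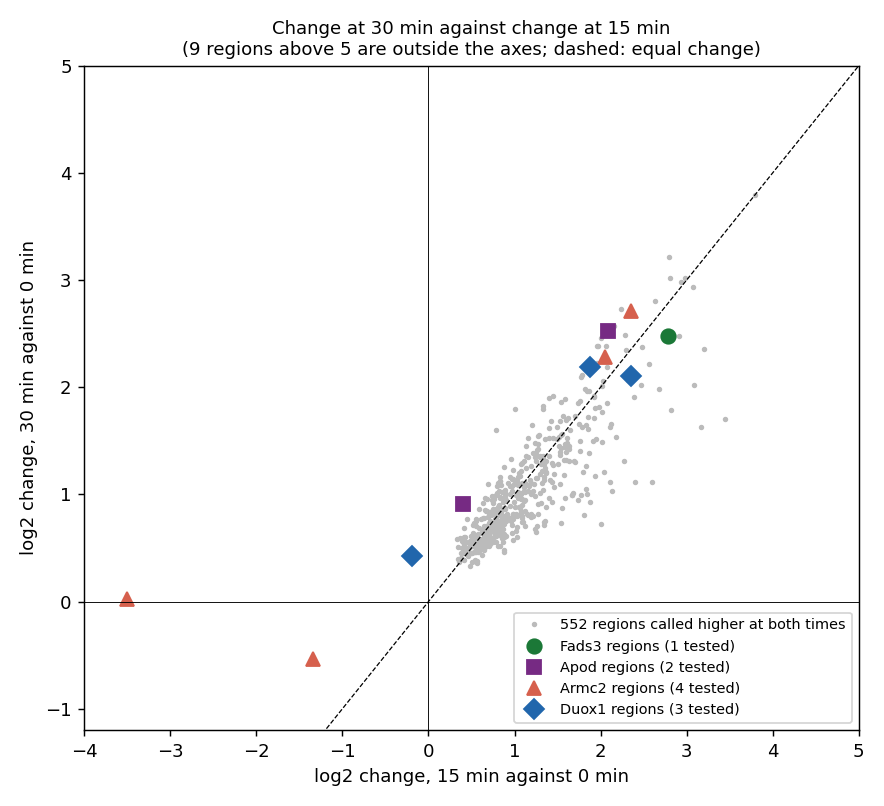
Log2 change at 30 against 0 min (vertical axis) plotted against log2 change at 15 against 0 min (horizontal axis) for the 10 tested regions of the 4 genes and the 552 regions called higher at both times; 9 regions above 5 lie outside the axes, and the dashed line marks equal change. Regions of the Firre transgene were not left out of the 552. The internal regions of the 4 genes sit between 1.87 and 2.79 at 15 min except bidir_68170 of Apod at 0.40, and the upper-end and flank regions of Armc2 lie left of 0.

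The authors' region caller assigned each region an interval before all windows were set to 600 bp. The width of that interval was not used directly in choosing the genes. The region that chose Fads3 was 1768 bp wide, wider than 90.2% of tested regions. That of Duox1 was 1560 bp (wider than 87.9%), that of Apod 1180 bp (80.6%) and that of Armc2 1002 bp (74.7%). The other internal regions called higher were narrower, with bidir_17177 at 830 bp (66.3%) and bidir_90811 at 582 bp (46.2%). The 552 regions called higher at both times had a median width of 1491 bp with quartiles of 862 and 2434 bp, and all tested regions had a median of 618 bp with quartiles of 386 and 1008 bp. The 552 also had a higher level at 0 min, with a median of 15.3 CPM beside 5.70 CPM for all tested regions. Widths were not compared at matched counts. Which libraries entered the region list is not given in the sources used here, so width and signal may share their source.

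The regions with the most similar course over the 9 libraries were found with a shape measure, the root mean square difference of log2 CPM after centring each region, over 22709 candidates. For bidir_79313 of Fads3 the nearest were in Sh2d4b (0.41), Svopl (0.48) and Pid1 (0.48), where the median candidate was at 1.30. For bidir_68169 of Apod they were in Sh2d4b (0.42), at Gm39485 (0.42) and at Shf (0.47), with a median of 1.12. For bidir_17177 of Armc2 they were in Pid1 (0.48), at Gm16041 and Rgs20 (0.49) and in Clec4a1 (0.49), with a median of 1.11. For bidir_90811 of Duox1 they were in Pid1 (0.32), Gm46044 (0.32) and Cldn10 (0.34), with a median of 0.95. With means of 17.3 and 9.0 reads per library, bidir_17177 and bidir_90811 fell under the minimum of 20 set for candidates. The regions that chose Armc2 and Duox1 had other nearest regions, at Gm39485 (0.36) for bidir_17176 and in Fgd4 (0.59) for bidir_90810. The measure ranks candidates on the same 9 libraries and is a description.

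Relatives of the 4 genes by function were counted beside the shares of all tested regions, 4.29% higher and 3.96% lower at 15 min and 1.24% higher and 0.497% lower at 30 min. Of 14 fatty acid desaturase and elongase genes and neighbours, 26 regions were tested and 0 were called at 15 or 30 min by edgeR or DESeq2, with 5 lower at 15 min and 1 higher and 3 lower at 30 min at an unadjusted p under 0.05. Of 13 NADPH oxidase and subunit genes, 8 regions were tested and 0 were called by either tool, with 1 higher and 1 lower at 15 min and 0 at 30 min at an unadjusted p under 0.05. Of 10 lipocalins and lipid carriers, 6 regions were tested and 1 was called: bidir_81056 inside Rbp4, a retinol carrier, had 12.2, 13.9 and 19.0 CPM at 15 min, against 28.2, 26.4 and 25.2 CPM at 0 min, and fell by 0.84 ± 0.19 on the log2 scale (edgeR adjusted p = 0.00573). Without library 1 of 15 min the adjusted p was 0.0580.

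Of 13 cilium and sperm flagellum genes, the list nearest to Armc2 by function, 45 regions were tested. At 15 min 1 was called higher, bidir_4741 inside Spag16, a central-pair component of the axoneme, with 7.14 ± 1.91 CPM at 15 min and 2.99 ± 0.97 CPM at 0 min (SD, n = 3 each). Its log2 change was 1.24 ± 0.33 (edgeR adjusted p = 0.0174) at 15 min and 0.14 ± 0.36 (adjusted p = 0.907) at 30 min. At 15 min 1 was called lower, bidir_33739 at an end of Ccdc40, a cilium assembly gene, which fell by 1.01 ± 0.25 on the log2 scale (edgeR adjusted p = 0.0107). Both calls were lost without library 1 of 0 min (adjusted p = 0.0799 and 0.0958) and without library 2 of 15 min (0.142 and 0.0746). The Spag16 call was also lost without library 3 of 0 min (adjusted p = 0.0820), and the Ccdc40 call without library 1 of 15 min (adjusted p = 0.0584). At 30 min 0 of the 45 were called by edgeR or DESeq2, with 5 higher and 5 lower at an unadjusted p under 0.05.

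Without library 3 of 15 min, the 15 min changes of the 4 regions that chose the genes were 2.82 for bidir_79313, 2.20 for bidir_68169, 2.07 for bidir_17176 and 1.94 for bidir_90810 on the log2 scale. The change was 2.67 for bidir_17177, 2.10 for bidir_90811, 0.30 for bidir_68170 and -0.31 for bidir_90812. In other genes it was 1.29 for the Shf start, -1.04 for the Rbp4 region, 1.33 for the Spag16 region and -1.35 for the Ccdc40 region, and these 4 were also called by edgeR without that library. The 2 lower calls at 15 min remained without it, at -1.37 for bidir_17181 (edgeR adjusted p = 0.0450) and -3.13 for bidir_17182 (adjusted p = 0.0360).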

How the data were processed

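PRO-seq signal was analysed in 9 libraries grouped by time from their titles. The deposited table holds raw read counts per 600 bp bidirectional region, while other values in the deposited lists are region coordinates, a start and an end on mm10. Per the submitters' processing notes HISAT2, featureCounts and DESeq2 1.26.0 were used on mm10, and settings and counting strand are not given in the sources used here. The region lists are named for Tfit and muMerge.

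Regions were placed on 34614 RefSeq genes of the same assembly by the centre of the window, with a gene end defined as within 1 kb of either annotated end. The counts were tested with edgeR 4.0.16 (R 4.3.3, limma 3.58.1). edgeR's default expression filter removed 119990 regions and kept 54299, libraries were scaled with TMM factors (0.971 to 1.02), and a single quasi-likelihood model over the 9 libraries had time as its factor (common dispersion 0.0228). Benjamini-Hochberg adjustment ran over the whole tested table, with calls at 0.05. Each SE was obtained from the log2 change and the root of its F statistic. Depth is the number of reads in regions, the floor of 3 reads and the ratio interval of bidir_17182 cover counting error only, and the 95% intervals of log2 differences come from the fit and include the spread between libraries. DESeq2 1.42.0, other scalings and filters, a replicate block and leaving out each library were the alternatives.

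All tested regions of the 4 genes were named. The lead region of a gene was its tested internal region with the highest value of the smaller of its log2 changes at 15 and 30 min, which gave bidir_79313, bidir_68169, bidir_17177 and bidir_90811. For each lead, the 3 most like regions in other genes with a mean of at least 20 reads were named. The genes, the related lists, the neighbours and the tests were chosen with earlier results of these data known. Same-numbered libraries did not deviate together in every pair, so the numbers were not taken to pair libraries.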

Additional observations from a re-analysis of the deposited data

Results flagged for a closer look

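The region bidir_90812, past the finish of Duox1 and centred on the annotated end of Shf, stood out because its 2 induced times differed from each other. It averaged 139 ± 6.42 CPM at 30 min and 91.1 ± 13.2 CPM at 15 min (SD, n = 3 each), a log2 difference of 0.61 in edgeR's quasi-likelihood test (adjusted p = 0.00917), with all 3 libraries of 30 min above all 3 of 15 min. The internal regions of Duox1 had differences of 0.31 and -0.24 between the same times, and neither was called. Groups of 3 libraries were too small for a test of single outlying libraries.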

How the results depend on the processing

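Every log2 change of the regions that chose the genes, and of the Shf start, kept its direction under all alternatives that tested it. Calls on weak regions were lost or not tested under some of these. The count of called regions of the 4 genes at 15 min, 8 as reported, was 5 with DESeq2 and 5 with a minimum of 20 reads in 3 libraries. It was 4 when the fit held only the 2 groups compared. With the 20-read minimum, bidir_17181, bidir_17182 and bidir_90811 were not tested, and with 2 groups bidir_17177, bidir_17182 and bidir_90811 were not. DESeq2 gave no adjusted p for bidir_17182 and bidir_90811. The bidir_17181 call was lost in tests with DESeq2 (adjusted p = 0.0644) and with 2 groups (edgeR adjusted p = 0.0519). The gene-end count at 15 min, 1 as reported, was 0 with DESeq2, with TMM factors from gene ends alone, with the 20-read minimum, with no filter and with 2 groups. Under the 20-read minimum that end region, bidir_17181, was not tested. The gene-end count at 30 min, 0 as reported, was 1 with gene-end TMM factors, with 2 groups and with the replicate block. The count at 30 against 15 min, 1 as reported, was 2 with no filter and 2 with windows that overlap no other. The change of bidir_17182 at 30 min, 0.03 as reported, reversed to -0.0048 with no filter, to -0.20 and -0.21 without library 1 or library 3 of 0 min, and to -0.10 without library 1 of 30 min, with a leave-one-out range of -0.21 to 0.59. The cause was not tested.

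Leaving out each library gave 2123 to 6412 calls over all regions at 15 min (4479 as reported), 171 to 1510 at 30 min (945), and 154 to 548 between 30 and 15 min (382). The counts for the 4 genes were 5 to 8 at 15 min, 4 to 6 at 30 min, 0 to 1 between those times, 4 to 5 at both times, and 0 to 1 for gene ends at 15 min and at 30 min. The bidir_90811 change at 30 min ran over 1.86 to 2.73. Scaling on gene ends alone raised the median change of all regions to 0.19 at 15 min and 0.11 at 30 min, and the share of calls that were higher was 80.99% in place of 52.04% at 15 min, 89.34% in place of 71.43% at 30 min and 18.07% in place of 30.37% between 30 and 15 min. With the replicate block the 4 genes had 8, 6 and 1 calls, and all regions had 4804, 1107 and 421, at 15 min, at 30 min and between them. Same-numbered libraries correlated at 0.04 to 0.18 at 15 min and -0.03 to 0.02 at 30 min in their deviations from the group means, so the block rests on a shared number only. Depth limited 54 of 64 regions to untested sums, the ends of Fads3 and the start of Duox1 had no region, and the internal Duox1 regions bidir_90810 and bidir_90811 rest on 23 and 7 reads in all at 0 min.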
